A study of Mus musculus with 8 samples.

Results

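The cell cycle S-phase and mitosis genes described here are 34 genes that dividing cells transcribe while they copy their DNA and then separate their chromosomes. They were followed in pancreatic islets of 2 inbred mouse strains. The members were taken by name from a given list. Every probe set of the array whose platform annotation names a member, and no other gene, was collected. For each gene the probe set with the highest mean over the 8 arrays stands for it. The array annotation gave 33 of the 34 members a probe set of their own, out of 18193 genes with such a probe set, and Ccnb1 was not analysed here. Of the 33, 11 are S-phase genes (the Mcm genes, Pcna, Rrm1, Rrm2, Tyms and Tk1) and 22 are mitotic genes.

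The islets came from AKR/J and C57Bl/6J mice, and mice of both strains had been on a high-fat diet for 3 months, so no array here shows either strain on another diet. Each strain gave 4 samples, each of which combined islets from 2 mice, and 5 µg of total RNA was used per array. The AKR/J samples are numbered 1 to 4 and the C57Bl/6J samples 5 to 8. The age and sex of the mice are not given in the sources used here. Values are log2 of the deposited GCRMA intensity, and a probe set was tested where the deposited detection call was positive on at least 4 of the 8 arrays. Since each sample is a pool, p-values set the strain difference against the spread between pools, not between single mice.

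S-phase genes load and drive the replicative helicase, clamp the polymerase to DNA and supply deoxynucleotides. Mitotic genes condense, attach and separate chromosomes and then divide the cell. The first kind is switched on largely by E2F factors, and the second later, largely through a promoter element called CHR, for cell cycle genes homology region, and neighbouring CCAAT boxes. Adult mouse beta cells divide rarely, and high-fat feeding is known to raise their division rate, so such transcripts are scarce in islet RNA and any dividing cell of the preparation contributes to them.

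Many of these genes were higher in AKR/J islets, from the helicase gene Mcm7 at 1.41-fold to the kinase-binding gene Cks2 at 6.70-fold. Of the 22 members tested, 13 were higher in AKR/J (limma, Benjamini-Hochberg adjusted p under 0.05 over all 20772 probe sets tested), against 7.90% of all 10573 genes tested. None of the 22 was lower, against 8.73% of all genes; at an unadjusted p under 0.05 the same limma fit gave 18 members higher and 1 lower, Mcm6. The 13 were Cks2, Top2a, Cdk1, Mki67, Rrm2, Cenpa, Ccna2, Rrm1, Racgap1, Mcm2, Bub1, Aurka and Mcm7, and 8 of them differed by at least 2-fold. Among the 13, Bub1 was tested through its AKR/J detections alone. Cenpa, Mki67, Cdk1 and Cks2 were detected on fewer than 4 C57Bl/6J arrays, so they too reached the filter only with their AKR/J detections. Another 9 did not pass the threshold, and 11 were detected on too few arrays to be tested. In bulk islet RNA a larger number of dividing cells and more RNA per dividing cell cannot be told apart.

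The strains were also separated array by array. In 16 of the 22 tested members every AKR/J array lay above every C57Bl/6J array, against 13.3% of all genes tested, and in none did every AKR/J array lie below, against 12.0%. The difference, AKR/J minus C57Bl/6J, was positive for 21 of the 22. Its median was 0.95 on the log2 scale over the 22, beside -0.0016 over all genes tested. The filter on detection bears on these counts, because Bub1 was detected on all 4 AKR/J arrays and on no C57Bl/6J array and so was tested through AKR/J alone. Cenpa and Prc1 were detected on all 4 AKR/J arrays and 1 C57Bl/6J array, and Mki67 and Cdk1 on 4 and 2. For Cks2, Cdc20 and Kif11 the detections were on 4 and 3. Of the 11 members detected on all 8 arrays, for which the filter is the same in both strains, 8 were called in the same fit: Mcm2, Mcm7, Rrm1, Rrm2, Top2a, Ccna2, Aurka and Racgap1. Among all 8829 genes detected on all 8 arrays, 8.28% were called higher. With no filter at all, 5 of the 33 were called higher, against 3.31% of 18193 genes.

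**Figure D1:**
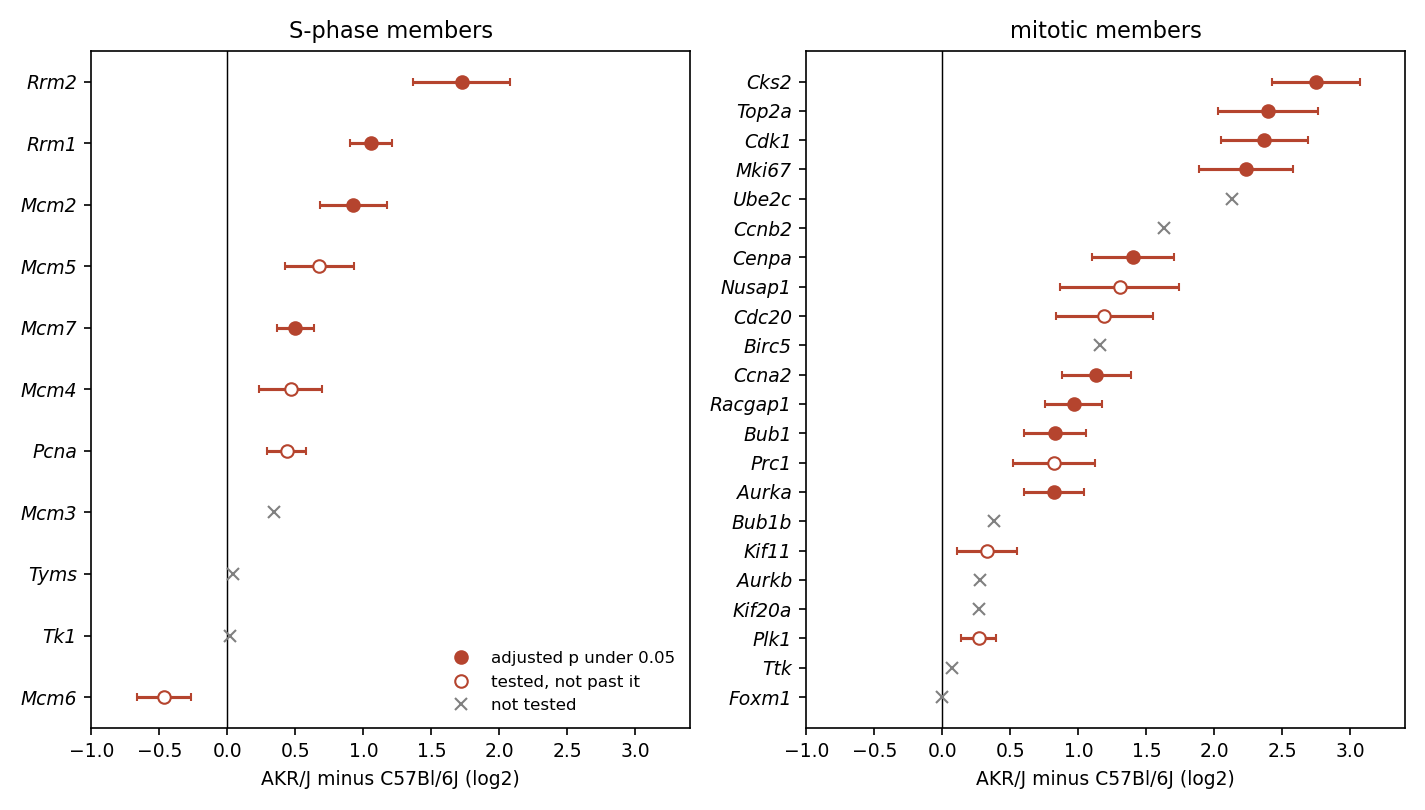
Difference between strains for each member with a probe set, in log2 units of GCRMA intensity (horizontal axis, AKR/J mean minus C57Bl/6J mean, n = 4 arrays per strain, bars show the limma standard error where the gene was tested). Most mitotic genes lie right of 0, led by Cks2 at 2.74, and Mcm6 at -0.47 is the member farthest to the left.

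Leaving out each array in turn, 6 members kept their call in all 8 refits: Cks2, Cdk1, Top2a, Mki67, Rrm1 and Rrm2. For Rrm2 the margin was narrow without C57Bl/6J array 6 (limma adjusted p = 0.0496). The promoter sequences of these 6 members are shown because they kept their call. Each is the 120 bases before the RefSeq transcription start on GRCm38.p6, 5′ to 3′ on the gene's strand. Capitals mark the motifs searched on both strands: the CHR (TTTGAA or TTCGAA), the CCAAT box (CCAAT) and an E2F motif (TTTCCCGC, TTTGGCGC, TTTCGCGC or TTTGCCGC). The reverse complements read TTCAAA or TTCGAA for the CHR and ATTGG for the CCAAT box.
Cks2, chr13:51645112-51645231, plus strand: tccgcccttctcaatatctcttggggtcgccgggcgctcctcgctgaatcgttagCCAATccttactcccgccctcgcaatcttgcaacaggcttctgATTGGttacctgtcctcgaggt
Cdk1, chr10:69352913-69353032, minus strand: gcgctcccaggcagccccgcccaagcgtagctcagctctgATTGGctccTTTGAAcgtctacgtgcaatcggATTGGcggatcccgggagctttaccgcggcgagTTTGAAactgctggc
Top2a, chr11:99024190-99024309, minus strand: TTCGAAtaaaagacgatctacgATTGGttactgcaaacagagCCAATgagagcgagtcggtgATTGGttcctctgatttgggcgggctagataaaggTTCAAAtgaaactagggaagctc
Mki67, chr7:135716380-135716499, minus strand: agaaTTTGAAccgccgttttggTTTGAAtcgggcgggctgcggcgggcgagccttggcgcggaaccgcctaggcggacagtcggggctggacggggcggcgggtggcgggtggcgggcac
Rrm1, chr7:102441575-102441694, plus strand: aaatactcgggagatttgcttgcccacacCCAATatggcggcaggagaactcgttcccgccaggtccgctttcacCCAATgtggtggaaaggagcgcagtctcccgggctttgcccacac
Rrm2, chr12:24708134-24708253, plus strand: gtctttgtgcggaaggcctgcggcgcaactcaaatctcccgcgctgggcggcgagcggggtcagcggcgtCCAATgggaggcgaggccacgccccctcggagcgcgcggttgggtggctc
In these windows Cdk1, Top2a and Mki67, all mitotic genes, carry CHR letters, and the ribonucleotide reductase genes Rrm1 and Rrm2 carry CCAAT boxes but no CHR letters. Cks2 carries 2 CCAAT boxes and no CHR letters. The E2F letters occur in none of the 6 stretches, but Cdk1 has a match just upstream, at bases -131 to -124. Mki67, without a CCAAT box in its stretch, has such boxes upstream that begin at bases -188, -166 and -141.

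Cks2 encodes a small protein that binds cyclin-dependent kinases, and among the chosen probe sets of the 22 tested members it had the highest fold in the GCRMA values. Its log2 intensity was 7.67, 7.21, 7.78 and 7.55 on AKR/J arrays 1 to 4 and 5.83, 4.37, 4.34 and 4.69 on C57Bl/6J arrays 5 to 8. Every AKR/J array lay more than 1 log2 unit above the highest C57Bl/6J array, which was array 5. The gene was 6.70-fold higher in AKR/J (7.55 ± 0.25 against 4.81 ± 0.70, SD, n = 4 each; log2 difference 2.74, SE 0.32; limma adjusted p = 0.00119), with detection on 3 of the 4 C57Bl/6J arrays. The probe set used carries a suffix that marks a possible match to more than 1 transcript, and a second one without that suffix gave 4.26-fold (limma adjusted p = 0.000989). The paralog Cks1b, which is no member, was 1.45-fold higher (limma adjusted p = 0.0208).

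Cdk1 is the kinase that starts mitosis. Its values were 6.33, 6.03, 6.48 and 5.80 in AKR/J and 4.78, 3.45, 3.57 and 3.37 in C57Bl/6J. The AKR/J arrays lay close together, while array 5 stood above the other C57Bl/6J arrays, which lay together. The difference was 5.16-fold (6.16 ± 0.31 against 3.79 ± 0.66; SE 0.32; limma adjusted p = 0.00233), with detection on all AKR/J arrays and on 2 C57Bl/6J arrays. Ccna2, cyclin A, which activates kinases of the S and G2 phases, was at 4.12, 4.65, 5.38 and 4.74 in AKR/J and 3.97, 3.36, 3.50 and 3.53 in C57Bl/6J. The strains did not overlap, though AKR/J array 1 came close to C57Bl/6J array 5, and Ccna2 was 2.19-fold higher (SE 0.26 on the log2 scale; limma adjusted p = 0.0227). Its other probe set gave 2.08-fold and did not pass (limma adjusted p = 0.139). Ccnb2, a B-type cyclin that partners Cdk1, was not tested because it was detected on 3 AKR/J arrays and no C57Bl/6J array. Its values were 3.97, 3.27, 5.45 and 4.88 in AKR/J and 2.77, 2.24, 3.09 and 2.94 in C57Bl/6J. That is 3.10-fold in the GCRMA values, and the C57Bl/6J level was not above background. The lowest detected value of any probe set, 0.62 to 0.86 on the C57Bl/6J arrays, lay below these values and sets no minimum for the fold.

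Top2a, the topoisomerase that untangles replicated chromosomes, and Mki67, the proliferation marker that coats mitotic chromosomes, both rose by more than 4-fold. Top2a was at 5.62, 5.01, 6.89 and 6.05 in AKR/J and 3.93, 3.27, 3.49 and 3.28 in C57Bl/6J. On arrays 6 and 8 the gene, though detected, lay below the median of all probe sets (3.38 and 3.39). Arrays 1 to 4 all lay above the C57Bl/6J arrays but spread over more than 1 log2 unit among themselves, with array 3 at the top. Top2a was 5.27-fold higher (5.89 ± 0.79 against 3.49 ± 0.31; SE 0.37; limma adjusted p = 0.00419), and its 2 other probe sets were detected on no array. Mki67 was at 6.42, 6.51, 7.49 and 6.98 in AKR/J and 5.31, 3.90, 4.94 and 4.32 in C57Bl/6J. Here too the strains did not overlap, and arrays 3 and 5 were the highest of their strains. Mki67 was 4.70-fold higher (6.85 ± 0.49 against 4.62 ± 0.63; SE 0.35; limma adjusted p = 0.00444).

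Genes of chromosome attachment and the spindle poles were higher as well, as was the checkpoint gene Bub1, tested through AKR/J alone. Cenpa, the histone H3 variant that marks the centromere, was at 4.10, 4.35, 4.81 and 5.11 in AKR/J and 3.63, 2.45, 3.50 and 3.18 in C57Bl/6J. The strains did not overlap, and the gene was 2.64-fold higher in AKR/J (SE 0.30; limma adjusted p = 0.0194), although only 1 C57Bl/6J array detected it and its 2 other probe sets were detected on no array. Bub1, a checkpoint kinase at kinetochores, was at 3.14, 3.39, 4.28 and 3.69 in AKR/J and 2.89, 2.97, 2.74 and 2.60 in C57Bl/6J. It was not detected on any C57Bl/6J array, and its AKR/J level was 1.77-fold that in C57Bl/6J. Tested through its AKR/J detections alone, Bub1 had a limma adjusted p of 0.0478, and of 0.136 with no filter. Aurka, the kinase of the spindle poles, was at 4.06, 2.98, 3.66 and 3.99 in AKR/J and 2.91, 2.82, 2.79 and 2.90 in C57Bl/6J. Those C57Bl/6J values, though detected, lay below the median of all probe sets on their arrays, 3.36 to 3.39. AKR/J array 2 nearly met the C57Bl/6J arrays while the other AKR/J arrays lay well above them, and the gene was 1.76-fold higher (SE 0.22; limma adjusted p = 0.0440).

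Racgap1, a part of the centralspindlin complex that positions the cleavage furrow, was at 6.16, 6.34, 7.09 and 6.56 in AKR/J and 5.81, 5.70, 5.24 and 5.54 in C57Bl/6J. No AKR/J array fell into the C57Bl/6J range, and array 3 was the highest. The gene was 1.95-fold higher (SE 0.21; limma adjusted p = 0.0193), and a second tested probe set gave 1.77-fold (limma adjusted p = 0.0118). The calls of Cenpa and Racgap1 were lost when AKR/J array 4 was left out (limma adjusted p = 0.0503 and 0.0521) and held in the other 7 refits. Ccna2 kept its call in 3 of the 8 refits, Bub1 and Mcm7 in 2, and Aurka and Mcm2 in 1. The number of members called fell from 13 to 7 without AKR/J array 4 and to 8 without C57Bl/6J array 6, 7 or 8, and was 10 or 11 without any of the other arrays.

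Of the mitotic members tested, 5 did not pass the threshold, and their differences were all positive. Cdc20, an activator of the anaphase-promoting complex, was at 6.24, 4.95, 6.55 and 5.20 in AKR/J and 4.77, 4.28, 4.74 and 4.38 in C57Bl/6J. The strains did not overlap, yet the AKR/J arrays split into a high and a low pair, and the 2.28-fold difference had a limma adjusted p of 0.0609. A second probe set of Cdc20 was called at 2.38-fold (limma adjusted p = 0.0227). Nusap1, a spindle microtubule binder, was at 4.04, 2.92, 5.20 and 4.28 in AKR/J and 2.94, 2.32, 3.21 and 2.75 in C57Bl/6J, with AKR/J array 2 inside the C57Bl/6J range (limma adjusted p = 0.0870). Prc1, which bundles midzone microtubules, differed by 1.77-fold (limma adjusted p = 0.112) and overlapped between strains. Plk1, a kinase of mitotic entry, and Kif11, the motor that separates spindle poles, differed by 1.20-fold and 1.26-fold (limma adjusted p = 0.203 and 0.358).

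The other mitotic members were too weakly detected to test. Ube2c, the ubiquitin-conjugating enzyme of the anaphase-promoting complex, was at 6.33, 5.26, 6.07 and 6.60 in AKR/J and 5.23, 3.46, 3.32 and 3.73 in C57Bl/6J. It was detected on 2 AKR/J arrays and no C57Bl/6J array, and array 5 lay just under the lowest AKR/J array. The AKR/J level of Ube2c was 4.38-fold that in C57Bl/6J in the GCRMA values, although only 2 AKR/J arrays detected it. Birc5, or survivin, was detected on 1 AKR/J array, with values of 4.01, 3.27, 4.92 and 4.68 in AKR/J and 3.07, 3.03, 3.07 and 3.08 in C57Bl/6J. No fold is given for Birc5, since 3 of its 4 AKR/J values were not above background either. The chosen probe sets of Aurkb, Bub1b, Kif20a and Ttk were detected on no array, and that of Foxm1, a transcription factor of mitotic genes, on 1 C57Bl/6J array. Other probe sets of Ttk and Foxm1 were detected on 2 and 3 arrays, too few for a test. A probe set at background carries no order between strains.

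Both genes of ribonucleotide reductase, the enzyme that makes deoxynucleotides, were higher. Rrm2, the small subunit of ribonucleotide reductase, was at 7.34, 7.35, 7.80 and 7.59 in AKR/J and 6.68, 5.49, 6.16 and 4.86 in C57Bl/6J. The C57Bl/6J arrays spread widely, from array 8 at the bottom to array 5 at the top, and none reached the AKR/J arrays. Rrm2 was 3.30-fold higher (7.52 ± 0.22 against 5.80 ± 0.79; SE 0.36; limma adjusted p = 0.0163), and a second probe set without such a suffix gave 3.48-fold (limma adjusted p = 0.00367). Rrm1, the large subunit, was at 7.05, 7.16, 7.61 and 7.06 in AKR/J and 6.44, 6.08, 6.21 and 5.92 in C57Bl/6J. Both strains were tight, with array 3 highest and array 8 lowest. Rrm1 was 2.08-fold higher (7.22 ± 0.26 against 6.16 ± 0.22; SE 0.16; limma adjusted p = 0.00360), while its other tested probe set gave 1.44-fold and did not pass (limma adjusted p = 0.168). Tyms, which makes thymidylate, was detected on 1 AKR/J array, and Tk1, which salvages thymidine, on none, so neither was tested.

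The Mcm genes encode the subunits of the replicative helicase, and they did not move as a block. Mcm2 was at 6.89, 6.71, 7.41 and 6.61 in AKR/J and 6.56, 5.77, 5.55 and 6.03 in C57Bl/6J. AKR/J array 4 and C57Bl/6J array 5 nearly met, without overlap, and Mcm2 was 1.90-fold higher (SE 0.25; limma adjusted p = 0.0422). Its other tested probe set gave 1.39-fold and did not pass (limma adjusted p = 0.130). Mcm7 was at 8.12, 7.92, 8.10 and 7.71 in AKR/J and 7.71, 7.47, 7.52 and 7.17 in C57Bl/6J. The lowest AKR/J value exceeded the highest C57Bl/6J value only narrowly, and Mcm7 was 1.41-fold higher (SE 0.14; limma adjusted p = 0.0460). Its 3 other tested probe sets gave 1.57-fold, 1.56-fold and 1.13-fold (limma adjusted p = 0.0318, 0.0538 and 0.699).

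Mcm6 was the tested member with a negative difference. Its values were 6.57, 6.62, 7.26 and 6.44 in AKR/J and 7.39, 7.26, 7.30 and 6.82 in C57Bl/6J. AKR/J array 3 lay within the C57Bl/6J range and the other AKR/J arrays below it. Mcm6 was 1.38-fold higher in C57Bl/6J (SE 0.20; limma adjusted p = 0.160), detected on 1 AKR/J array and all 4 C57Bl/6J arrays, and did not pass. This probe set reached the detection filter only with its C57Bl/6J detections. Without AKR/J array 3 it was called lower in AKR/J, with a log2 difference of -0.65 (limma adjusted p = 0.0299). A second tested probe set of Mcm6, detected on 1 AKR/J array and 3 C57Bl/6J arrays, showed little difference between strains. Its log2 difference was -0.11 (limma adjusted p = 0.879). Mcm4 and Mcm5 overlapped between strains and did not pass (1.38-fold and 1.60-fold; limma adjusted p = 0.225 and 0.120). A second probe set of Mcm5 was called at 2.35-fold (limma adjusted p = 0.0183). For Mcm3 the brightest probe set was detected on no array, and another, detected on all 8, differed by 1.59-fold (limma adjusted p = 0.298).

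Pcna, the sliding clamp of the replicative polymerases, was detected on all 8 arrays, at 10.38, 10.21, 10.65 and 10.23 in AKR/J and 10.09, 9.79, 10.16 and 9.69 in C57Bl/6J. All AKR/J arrays lay above all C57Bl/6J arrays by a narrow margin, and the 1.35-fold difference did not pass (SE 0.14; limma adjusted p = 0.0786).

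Over all S-phase members tested, 4 of 8 were called and the median log2 difference was 0.59; over the mitotic members tested, 9 of 14 were called and the median was 1.16. Of all genes tested, 7.90% were called higher. With untested members included, many of them near background, the medians were 0.46 over 11 and 1.05 over 22. The mean over the 11 S-phase probe sets was 6.17, 6.19, 6.60 and 6.13 in AKR/J and 6.01, 5.61, 5.81 and 5.59 in C57Bl/6J, a difference of 0.52. The mean over the 22 mitotic probe sets was 4.69, 4.42, 5.20 and 4.91 in AKR/J and 3.94, 3.49, 3.70 and 3.60 in C57Bl/6J, a difference of 1.12. In both means the strains did not overlap. Whether the mitotic and S-phase differences themselves differ was not tested.

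**Figure D2:**
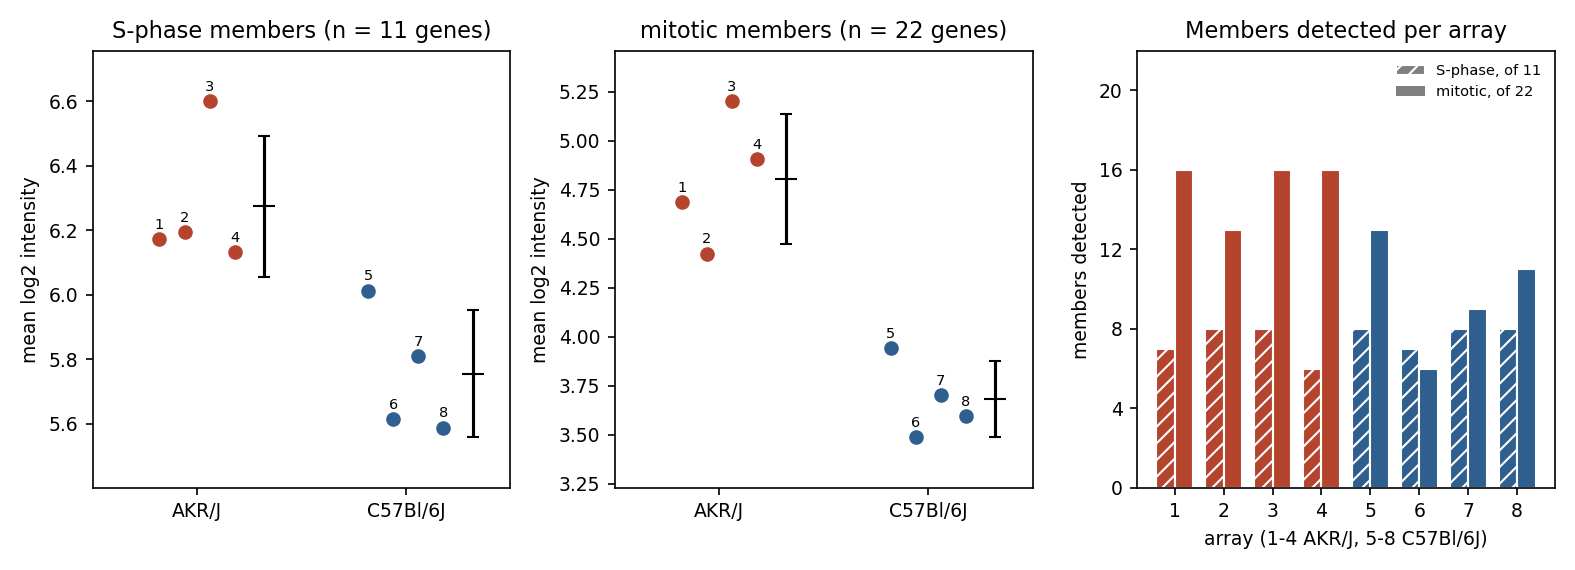
Mean log2 GCRMA intensity of the S-phase and of the mitotic members by array (vertical axis), with the strain mean and SD over 4 arrays, and the number of members of each class detected on each array (bars). AKR/J array 3 and C57Bl/6J array 5 lie highest within their strains, and 13 to 16 mitotic members were detected in AKR/J against 6 to 13 in C57Bl/6J.

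Arrays within a strain differed together. AKR/J array 3 was the highest of its strain in 17 of the 22 tested members, and C57Bl/6J array 5 was the highest of its strain in 14. Array 6 was the lowest C57Bl/6J array in 10. These counts were not made over all genes tested, so they do not show a trait of the members. Of the 22 mitotic members, 16, 13, 16 and 16 were detected on the AKR/J arrays and 13, 6, 9 and 11 on the C57Bl/6J arrays. The S-phase members showed no such gap, with 6 to 8 of 11 detected per AKR/J array and 7 to 8 per C57Bl/6J array. The share of all probe sets detected overlapped between strains and was not higher in AKR/J, at 43.7% to 47.0% on the AKR/J arrays and 45.7% to 48.1% on the C57Bl/6J arrays, and array 3 had the highest share of its strain, as array 5 had of its own.

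**Figure D3:**
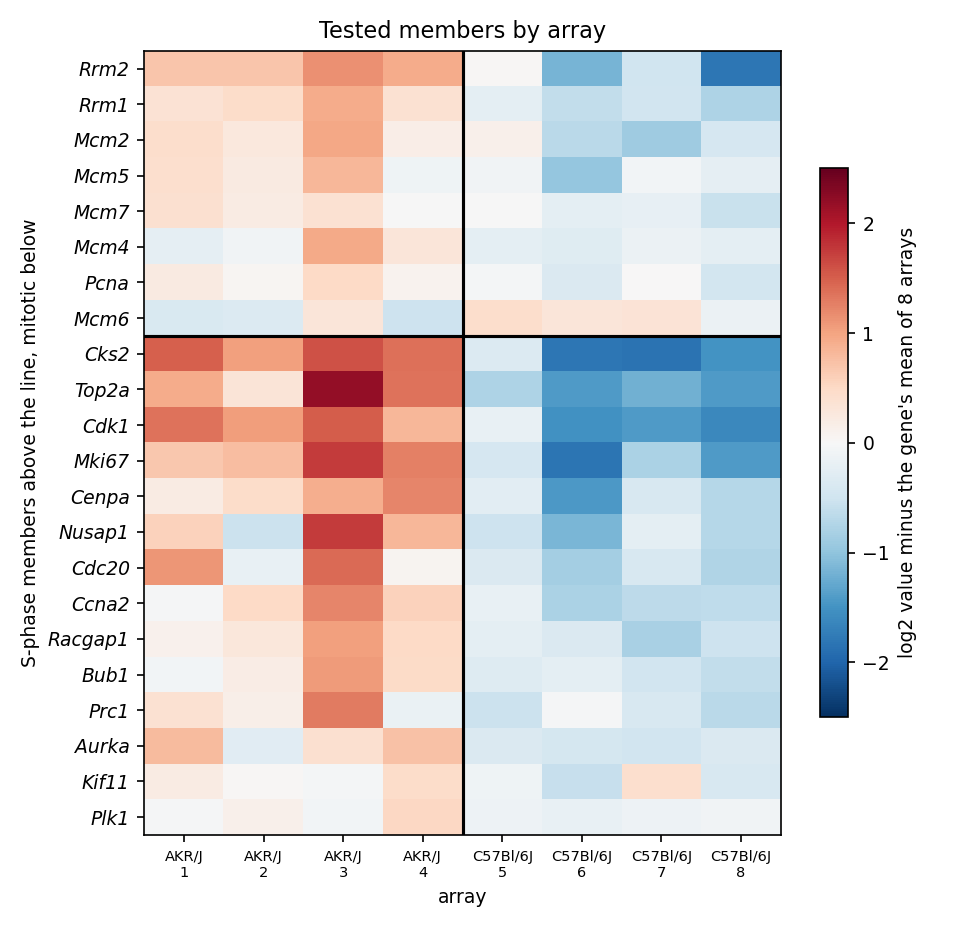
Log2 GCRMA intensity of each tested member on each array, shown as the difference from that gene's mean over the 8 arrays (colour, log2 units). The AKR/J columns are above the gene mean for most members, Mcm6 runs the other way on 3 of the 4 AKR/J arrays, and array 5 is the C57Bl/6J column nearest to the AKR/J columns.

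The second principal component of all tested probe sets, with 13.7% of the variance against 59.1% for the first, which separated the strains, set arrays 1, 2, 5 and 6 apart from arrays 3, 4, 7 and 8. The labels name no batch. Each set of 4 holds 2 arrays of each strain, and the S-phase difference was 0.37 in the first and 0.67 in the second. The mitotic difference was 0.84 and 1.41. Both differences kept their sign in each set. With this split as a block in the limma fit, 14 members were called higher, 1 more than without it.

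The other probe sets of the members were read as well. The 33 members have 76 probe sets, 24 members having more than 1. Of the 43 that do not stand for their gene, 22 were detected on no array and 15 were tested. All 15 had the sign of their gene's chosen probe set, and 6 were called higher themselves, those of Cks2, Rrm2, Racgap1, Mcm7, Mcm5 and Cdc20. Of all 20772 probe sets tested, 2968 were called in either direction. The MAS5-type signals of the same arrays, scaled by another method, were raised to at least each array's 5th percentile and quantile-normalized. In them 13 members were again called higher: Aurka and Ccna2 were lost (limma adjusted p = 0.0505 and 0.0724), and Cdc20 and Kif11 were gained. The order of the genes differed there. Log2 differences were smaller than in the GCRMA values for Cks2 at 1.92, Top2a at 1.94, Mki67 at 1.83, Cdk1 at 1.60 and Rrm1 at 0.55. The same held for the untested Ube2c at 1.44 and Ccnb2 at 1.24. Differences were larger for Bub1 at 2.33, Cenpa at 1.86, Cdc20 at 1.84 and Kif11 at 1.19. For Bub1 the C57Bl/6J signals were not above background on any array. Whether sequence differences between the strains under the probes bear on any of these values was not tested.

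Beyond the 6 sequences above, the motif search covered 31 RefSeq promoters of 29 members, each running from 250 bases before to 50 bases after the start. Aurkb, Ccna2, Foxm1, Kif20a and Mcm4 are the members without an entry. CHR letters were in 16 of 20 mitotic promoters (80%) and in 2 of 11 S-phase promoters (18.2%), beside 19.2% of all 32851 promoters of that length. CCAAT letters were in 18 of 20 mitotic (90%) and 9 of 11 S-phase promoters (81.8%), beside 37.4% of all. The E2F letters were in 1 of 20 mitotic (5%) and 4 of 11 S-phase promoters (36.4%), beside 2.26% of all. Among the 18110 promoters of genes with a probe set, the shares were 15.1% for CHR, 37.4% for CCAAT and 3.21% for E2F letters. Some mitotic CHR matches, such as those of Aurka, Bub1 and Cenpa, lie just after the start. Members called higher held CHR letters in 9 of 13 promoters (69.2%) and all other members in 9 of 18 (50%). Those others include untested members and Ccnb1, and both groups mix S-phase and mitotic members. A match is a run of letters and does not show that a factor binds there.

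**Figure D4:**
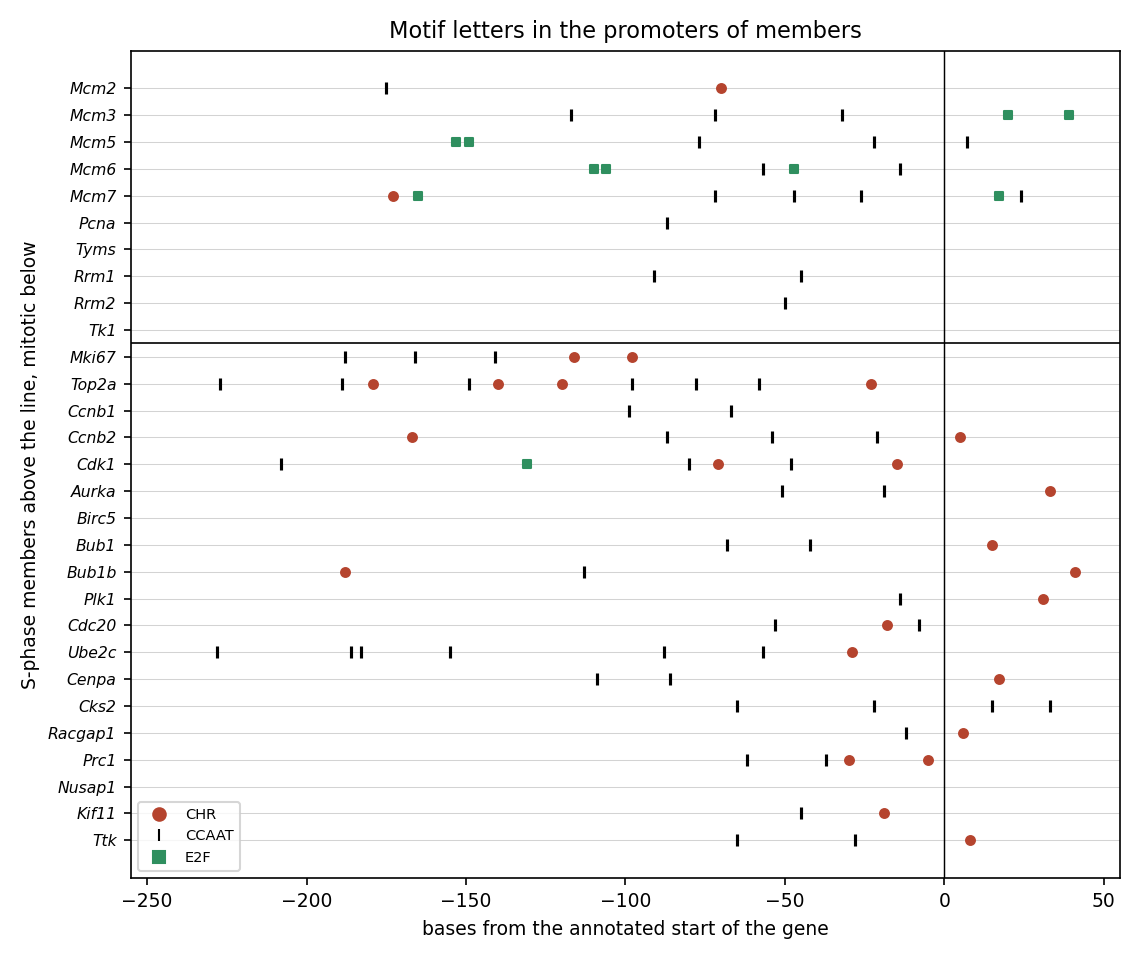
Positions of motif letters in the promoters of the members (horizontal axis, bases from the RefSeq transcription start), by gene; the alternative promoters of Mcm7 and of Prc1 share a line each. CHR matches lie mainly in mitotic promoters and E2F matches mainly in S-phase promoters, while CCAAT matches occur in both.

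Other genes of the cycle give the setting of the members. Their counts stand beside 7.90% of all genes tested called higher and 8.73% called lower. Of 32 tested genes of replication licensing and forks that are no members, 5 were higher and 1 lower, with a median log2 difference of 0.32. Dut, which removes dUTP, and the fork proteins Gins4, Rpa2 and Prim1 were 1.32-fold, 1.43-fold, 1.71-fold and 1.27-fold higher (limma adjusted p = 0.00854, 0.0237, 0.0247 and 0.0365), and the polymerase subunit gene Pold3 was 1.29-fold lower (limma adjusted p = 0.0418). Of 32 tested genes of mitosis and cytokinesis that are no members, 7 were higher and 2 lower, with a median of 0.41. Pbk, a mitotic kinase, was 5.77-fold higher, Stmn1, a microtubule destabiliser, 3.16-fold, Cdca3 2.02-fold and Mad2l1, the checkpoint protein Mad2, 1.88-fold (limma adjusted p = 0.00902, 0.00218, 0.00444 and 0.0153).

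Against these, Pttg1, or securin, which holds separase inactive until anaphase, was 5.47-fold lower in AKR/J (limma adjusted p = 0.000862), at 7.47, 7.01, 8.09 and 7.90 in AKR/J and 9.57, 9.97, 10.30 and 10.44 in C57Bl/6J. Spc25, a subunit of the Ndc80 kinetochore complex, was 2.70-fold lower (limma adjusted p = 0.000494), at 10.25, 10.68, 10.87 and 10.66 in AKR/J and 12.07, 11.83, 12.10 and 12.21 in C57Bl/6J. For both genes the strains did not overlap, in the direction opposite to the members.

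Regulators of these genes made a list of their own. Of 18 tested cell cycle transcription regulators, 3 passed the threshold, all of them higher in AKR/J, with a median of 0.05 over the list. These were E2f1, an activator of S-phase genes, at 1.52-fold, E2f6, a repressor, at 1.75-fold, and the E2F partner Tfdp2 at 1.26-fold (limma adjusted p = 0.0169, 0.00207 and 0.0344). Of 11 tested G1 cyclins and inhibitors, only the inhibitor Cdkn2c passed, 1.94-fold higher (limma adjusted p = 0.00658). Both lists stand beside 7.90% of all genes tested called higher, and 1 of 11 is near that share.

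Markers of the cells an islet preparation holds were measured beside the members. Over all genes tested, 7.90% were called higher and 8.73% lower. All 17 islet endocrine markers with a probe set were tested, with 2 higher, 4 lower and a median of 0.01, and Ins2 and Iapp were at mean log2 values of 15.71 and 15.63 in AKR/J and 15.50 and 15.45 in C57Bl/6J. Of 16 endothelial markers tested 4 passed, all higher in AKR/J, with a summed level, as the mean over the list, of 7.41 to 7.67 on the AKR/J arrays and 7.22 to 7.34 on the C57Bl/6J arrays. Its brightest genes, Plvap and Emcn, did not pass (limma adjusted p = 0.155 and 0.544). Fibroblast and pericyte markers were higher in 1 of 11, Rgs5 at 2.67-fold (limma adjusted p = 2.21e-05), and lower in 2, while Col3a1 did not pass (limma adjusted p = 0.713); the list ran from 7.49 to 7.88 on the AKR/J arrays and from 7.74 to 7.90 on the C57Bl/6J arrays.

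Acinar and macrophage markers moved against the members. The counts below stand beside 8.73% of all genes tested called lower and 7.90% called higher. Acinar markers were lower in 18 of 19 tested, with list means of 12.29 to 12.50 on the AKR/J arrays and 13.23 to 13.36 on the C57Bl/6J arrays, Cela3b and Cpb1 being 1.48-fold and 1.42-fold lower (limma adjusted p = 0.000657 and 0.00245). Macrophage markers were lower in 8 of 14, at 5.78 to 6.10 and 6.45 to 6.65; Ctss was 2.46-fold lower (limma adjusted p = 0.000574) and C1qa did not pass (limma adjusted p = 0.973). Duct markers were higher in 1 and lower in 2 of 6 tested, with a median log2 difference of 0.12 over the 6. Krt18 and Krt7 were not past the threshold (limma adjusted p = 0.151 and 0.0779). On the AKR/J arrays the duct list mean was 7.13 to 7.33, below the 7.53 to 7.81 of the other strain. Unlike the median, that mean covers all 10 duct genes with a probe set, 3 of them detected on no array. The lymphocyte and plasma cell list ran from 3.15 to 3.61 and from 3.36 to 3.75, and its brightest tested genes, Cd52 and Jchain, did not pass (limma adjusted p = 0.0544 and 0.0532). The Schwann cell list ran from 3.01 to 3.32 and from 3.05 to 3.28, with Cdh19 and S100b not past the threshold (limma adjusted p = 0.424 and 0.826). Of 8 erythroid markers 6 were detected on no array and none was tested, at 2.54 to 2.59 on the AKR/J arrays and 2.56 to 2.63 on the C57Bl/6J arrays. The part of these cell types in the members' differences was not tested.

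**Figure D5:**
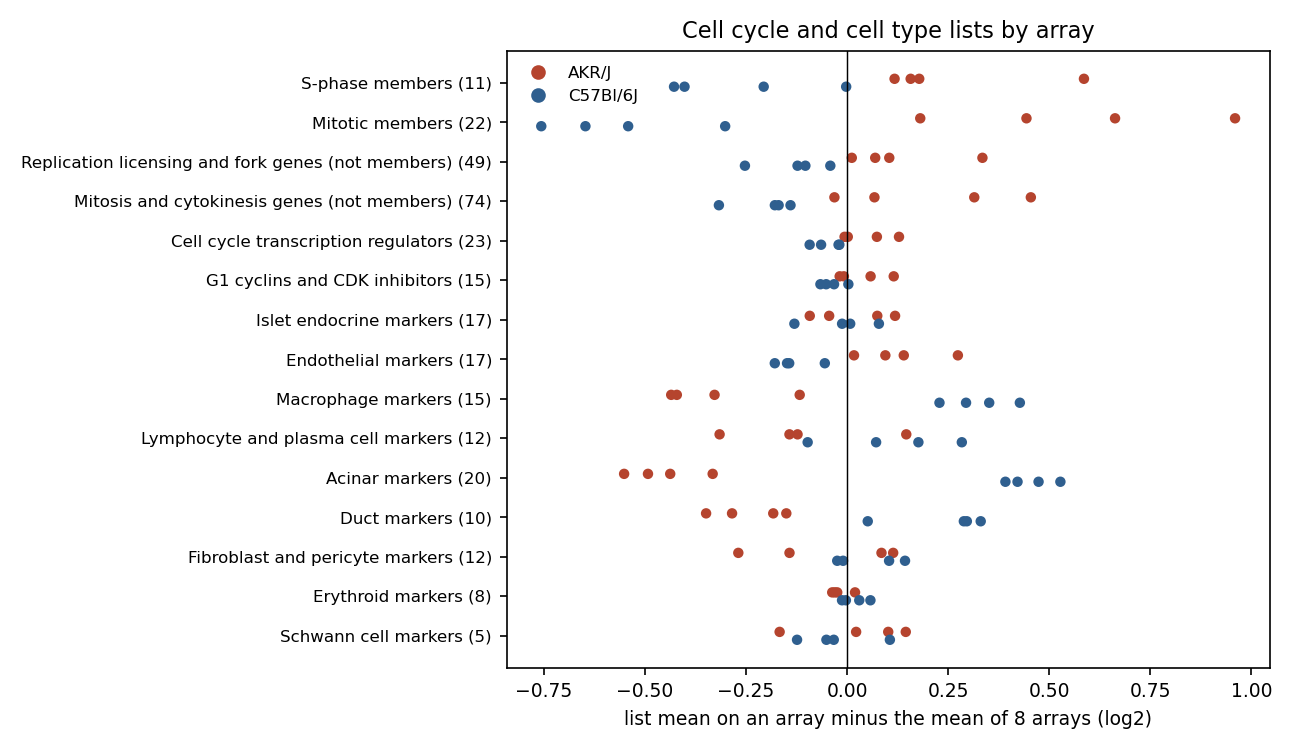
Mean log2 GCRMA intensity of each gene list on each array (points), as the difference from the list's mean over the 8 arrays (horizontal axis, log2 units; lists on the vertical axis). The mitotic members span the widest range among the lists shown, and the acinar and macrophage marker lists lie lower in AKR/J.

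Over all tested probe sets, arrays correlated at 0.985 to 0.993 within a strain and 0.966 to 0.975 between strains. For actin, control probe sets at the 3′ end exceeded those at the 5′ end by 1.23 to 1.35 log2 units on the AKR/J arrays and by 1.16 to 1.41 on the C57Bl/6J arrays. For Gapdh that ratio was -0.33 to -0.24 over AKR/J arrays and -0.22 to 0.11 over C57Bl/6J arrays, and the strains did not overlap. Its part in the members' differences was not tested. The precision of every value rests on 4 arrays per strain.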

How the data were processed

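Total RNA of 8 islet samples, 4 per strain as the sample titles name it, was measured on Affymetrix mouse expression arrays with 45101 probe sets, 64 of them controls. The series' value table holds intensity on a linear scale, deposited by the authors. GCRMA is the tool that the submitters' processing notes list, without a version; it models background from the sequences of the probes and puts arrays on a common scale. The per-array files deposited beside it hold a MAS5-type intensity, a detection call and a detection p-value, per the file headers. A probe set was called detected where that p-value was under 0.05.

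Values were log2-transformed without further normalization, array quantiles differing by at most 0.0904. Probe sets were named through GEO's platform annotation: 34945 have 1 gene symbol, 932 several and 9160 none, and all 76 of the members matched RefSeq by Entrez identifier and symbol. The 20772 probe sets detected on at least 4 arrays were fitted in limma 3.58.1 (R 4.3.3; lmFit, eBayes, AKR/J against C57Bl/6J, no covariate), and p-values were Benjamini-Hochberg adjusted over all of them. Means of a class are over 1 probe set per gene and carry no test. The fit was tested on simulated data. Motifs were counted with Python 3.11.15 in RefSeq promoters of GRCm38.p6.

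The members and lists were chosen with earlier results of these data known. Every member was accounted for. From each other cell cycle list the 4 called genes with the smallest p in each direction were named, from each cell type list the 2 brightest tested, and Cks1b beside Cks2. Pttg1 and Spc25 belong to the mitosis list. Alternatives were other filters, signals, normalizations, variance models, array weights and probe set rules, and leaving out each array. Added after seeing the data were the mean over tested probe sets, the brightest tested probe set, adjustment over 1 probe set per gene, and the split of arrays 1, 2, 5 and 6 from 3, 4, 7 and 8.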

Additional observations from a re-analysis of the deposited data

Results flagged for a closer look

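In groups of 4 arrays, a lowest or highest array was looked for that stood far from the other 3 by Dixon's criterion at 95%, over 74 groups of values (members, class means and list means in each strain). It was met in 4, and chance gives about 1 in 20. The S-phase mean of AKR/J array 3 was 6.60, above 6.13 to 6.19 on the other AKR/J arrays. Cdk1 on C57Bl/6J array 5 was at 4.78, above 3.37 to 3.57 on the others. Mcm5 on C57Bl/6J array 6 was at 3.50, below 4.24 to 4.39. The duct marker mean on C57Bl/6J array 6 was 7.53, below 7.77 to 7.81.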

How the results depend on the processing

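The count of members higher in AKR/J (13; 4 S-phase and 9 mitotic) stayed between 10 and 15 under the MAS5-type signals, a further quantile normalization, centring each array, trended robust variance, array weights, the probe set rules, adjustment over 1 probe set per gene and the split of arrays as a block. The genes were not always the same. Without probe sets whose names end in _x_at, _s_at or _a_at, 10 were called, 5 calls were lost (Bub1, Cenpa, Mcm7, Racgap1, Top2a) and 2 gained (Cdc20, Mcm5). There Top2a and Cenpa rest on probe sets detected on no array (log2 differences 0.02 and 0.04), and Mcm7 and Racgap1 have none left. With array weights 2 S-phase members were called. It fell to 5 with no filter (1 S-phase, 4 mitotic) and to 8 with only probe sets detected on all 8 arrays (4 mitotic), where the S-phase mean difference was 0.85 over the fewer genes left. Leaving out 1 array gave 7 to 11 members higher, 2 to 4 of them S-phase and 4 to 9 mitotic, and 0 to 1 lower, Mcm6 without AKR/J array 3. Arrays 1, 2, 5 and 6 alone gave 0 higher in limma (0 S-phase, 0 mitotic; 8 at an unadjusted p under 0.05) and 1 lower, Mcm6. Arrays 3, 4, 7 and 8 alone gave 3 higher (0 S-phase, 3 mitotic). These fits have 2 arrays per strain. The causes of the other changes were not tested. No called difference changed sign under any of these settings. Signal over background left 8 of 22 mitotic and 3 of 11 S-phase members untested.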

Other observations

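Of the mitosis genes that fell in AKR/J, Spc25 lies on the genome between the protein-coding genes Nostrin and G6pc2 in the RefSeq order, and G6pc2, an islet glucose-6-phosphatase, is itself abundant in islets. Its mean log2 level was 13.93 on the AKR/J arrays and 14.15 on the C57Bl/6J arrays (limma adjusted p = 0.0516). Whether transcripts of the neighbouring gene bear on the Spc25 value was not tested.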
